A study of Mus musculus with 15 samples.

Results

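Gene expression in MC38 tumours of mice injected intravenously with BG136 and anti-PD-1 antibodies was compared with that in tumours of mice injected intravenously with vehicle. BG136 is a soluble β-glucan with β-1,3 and β-1,6 links. The 5 combination libraries and the 5 vehicle libraries were taken by their titles, which makes 10 of the 15 libraries of the series. The other 5 came from mice given anti-PD-1 antibodies alone, and the combination was also set against them, because that group received the antibody but no glucan. All 15 carry the label wild type and the same tumour line, and the labels used here give no dose, day, sex or age. Each library is a block of whole tumour, read as messenger RNA with a stranded kit, so it holds host cells beside the tumour line. The labels do not say whether tumours were independent animals, so p-values measure the spread between these libraries. Values are FPKM, that is fragments scaled to transcript length and to the library's mapped fragments. A gene was tested where 5 or more of the 10 libraries held 1 FPKM or more, which left 11106 of the 21851 genes listed.

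PD-1 (Pdcd1) is an inhibitory receptor on activated T cells, and its ligand PD-L1 (Cd274) on tumour and myeloid cells dampens their response. Antibodies that block the pair restore T cell activity in many mouse tumours, and MC38 is a model that responds to them. β-glucans are cell wall polysaccharides that phagocytes bind through Dectin-1 (Clec7a) and complement receptor 3 (Itgam with Itgb2). The lectin receptors signal through the kinase Syk and the adaptor Card9.

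MC38 is labelled as a colon adenocarcinoma line, but epithelial markers were low in both groups. Epcam lay between 0.344 and 3.82 FPKM in the combination libraries and between 0.0207 and 0.965 in the vehicle libraries, and the keratin Krt18 was at 0.72, 0.913, 3.81, 7.29 and 6.13 FPKM in the combination libraries, against 0, 0, 0.758, 1.36 and 0 in the vehicle libraries. Replicates 3, 4 and 5 of the combination were thus the highest in these markers. The mesenchymal filament gene Vim lay between 1309 and 1627 FPKM in the combination libraries and between 1271 and 1478 in the vehicle libraries. Leukocyte content varied among the combination libraries. Ptprc, the pan-leukocyte marker CD45, was at 39.7, 28.3, 63.7, 32.7 and 75.9 FPKM in combination replicates 1 to 5, and between 17.6 and 21.4 in the vehicle libraries. Replicates 3 and 5 were thus the highest, and the counts and medians of lists are given with and without them. In bulk tissue, more cells of a type and more RNA per cell cannot be told apart. Fat and muscle also varied. Adipoq, an adipocyte hormone, lay between 1.75 and 23.1 FPKM with the combination and between 0.0416 and 17.3 with vehicle. The muscle actin Acta1 was at 0.0963 FPKM in combination replicate 4 and between 49.0 and 82.3 in the others of its group, and between 0.0575 and 112 FPKM with vehicle.

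Against vehicle, 3587 genes passed an adjusted p of 0.05 (32.3% of those tested, limma on log2(FPKM + 1), two-sided, Benjamini-Hochberg adjusted over all genes tested), 1485 higher (13.4%) and 2102 lower (18.9%) in the combination tumours. The rises were larger than the falls. Of the genes past the threshold 325 were at least 2-fold higher and 52 at least 2-fold lower, and the median log2 change was 0.67 for genes that rose and -0.32 for genes that fell. Leaving out combination replicate 5 brought the count of at least 2-fold changes to 241, against 377 with all libraries, and leaving out replicates 3 and 5 brought it to 152. The median over all genes tested was -0.06. With libraries rescaled by the median ratio across genes 3189 passed and 54.7% of them were higher, against 41.4% as deposited, so the balance of rises and falls depends on the scaling. In 1016 genes (9.15%) all 5 combination libraries lay above all 5 vehicle libraries, and in 1650 genes (14.9%) all 5 lay below. Most genes named below were picked for large changes past the threshold, so a lack of overlap in them follows in part from that choice.

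**Figure D1:**
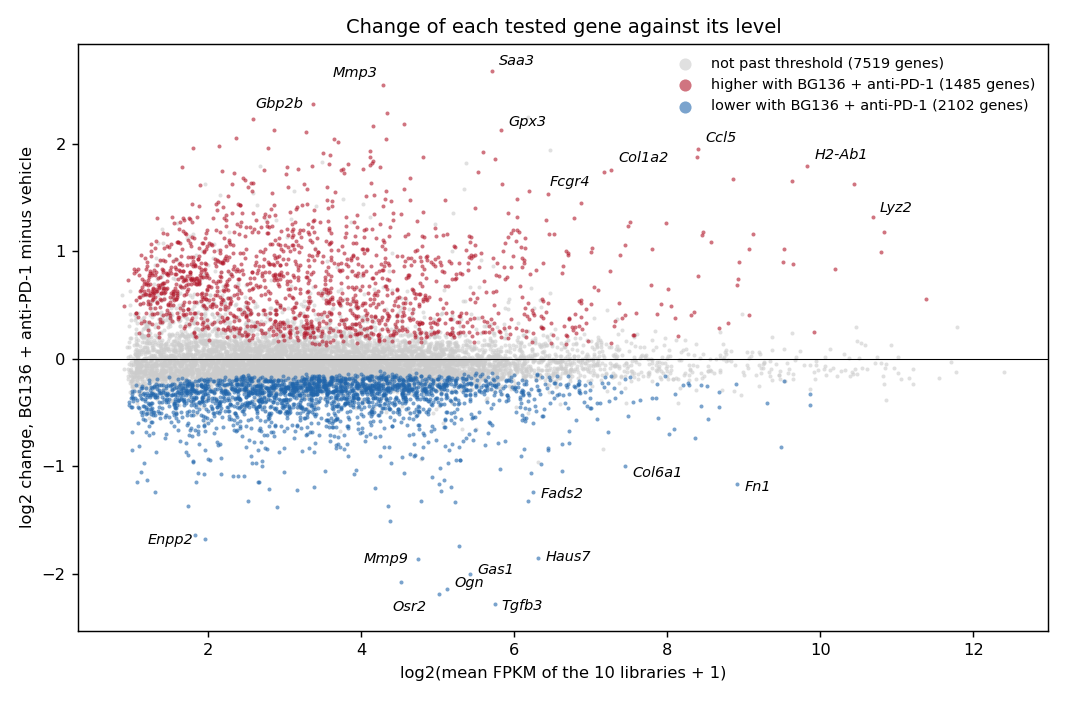
Each point is 1 of the 11106 genes tested. The x axis gives its level as log2(mean FPKM + 1) over the 10 libraries and the y axis its log2 change, combination minus vehicle; red points passed the threshold higher, blue points lower and grey points did not pass. Rises reach further from 0 than falls, with 325 genes at least 2-fold higher and 52 at least 2-fold lower among those that passed.

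The 5 combination tumours did not contribute evenly. Among the 1485 genes that rose, replicate 5 held the highest value in 994 (66.9%) and replicate 3 in 270 (18.2%). Among the 2102 that fell, replicate 5 was the lowest in 1054 (50.1%). The median SD of a gene's log2 values was 0.163 in the combination group and 0.0904 in the vehicle group. Without replicates 3 and 5 the count of genes past the threshold was 2698, of which 1181 were higher. By share, 10.6% of the genes tested were then higher and 13.7% lower. List counts without these replicates stand beside those shares.

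Genes of T cells were higher with the combination. Log2 changes below are given with their standard error. Of 15 tested genes of the T cell receptor complex and its kinases, 14 rose and 0 fell, with a median log2 change of 1.2, and 14 rose without replicates 3 and 5 (median 0.77). Cd3g, a CD3 chain, was at 20.6, 14.6, 24.6, 20.8 and 50.9 FPKM in combination replicates 1 to 5, against 4.41, 6.11, 8.97, 6.98 and 5.30 with vehicle (log2 change 1.80 ± 0.28, adjusted p = 0.00205). Cd8b1, the beta chain of CD8, was at 12.2, 9.46, 16.2, 13.1 and 34.5 FPKM, against 3.21, 5.21, 5.62, 4.36 and 3.97 with vehicle (1.60 ± 0.28, adjusted p = 0.00312). In both genes the groups did not overlap and replicate 5 stood highest.

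All 9 tested inhibitory receptors and exhaustion factors rose (median 1.17), and all 9 also rose without replicates 3 and 5 (median 0.84). Pdcd1 itself was at 11.2, 8.42, 16.3, 8.99 and 23 FPKM with the combination, against 2.57, 4.39, 4.37, 4.04 and 2.25 with vehicle, a log2 change of 1.63 ± 0.26 (adjusted p = 0.00225). Lag3, which binds MHC class II, changed by 1.40 ± 0.30 and Ctla4, which competes with CD28 for its ligands, by 1.03 ± 0.20. The ligand gene Cd274 was at 53.2, 40.3, 79.1, 64.8 and 57.1 FPKM, against 28.7, 19.3, 24.6, 30.7 and 26.7 with vehicle (1.13 ± 0.17, adjusted p = 0.0017). Its 5 combination values all exceeded the vehicle values, and replicates 3 and 4 were the highest, a different order from that of the T cell genes.

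Cytotoxic granule genes moved less uniformly. Of 14 tested, 6 rose and 1 fell (median 0.91, and 0.44 without replicates 3 and 5). The granzyme Gzmk was at 4.54, 2.90, 5.89, 3.49 and 21.2 FPKM with the combination against 0.554, 0.523, 1.34, 0.325 and 0.666 with vehicle (2.05 ± 0.40, adjusted p = 0.00501). The pore-forming protein gene Prf1 changed by 1.13 ± 0.27. Gzmb, the main granzyme of activated killer cells, was at 51.9, 27.7, 96.5, 40.2 and 99.9 FPKM against 33.2, 18.4, 32.0, 30.5 and 35.2 with vehicle. Its groups overlapped and it did not pass (0.92 ± 0.34, adjusted p = 0.0556). Of 11 T cell transcription factors 6 rose and 2 fell (median 0.57), and without replicates 3 and 5 there were again 6 and 2 (median 0.39). Those that fell made up 18.2% of the list, close to the 18.9% over all genes tested. The falls were those of Tcf7 and Lef1. Tcf7, a transcription factor of naive and memory-like T cells, was at 6.86, 7.09, 6.50, 5.95 and 5.12 FPKM with the combination, against 9.45, 8.54, 9.06, 7.79 and 9.87 with vehicle (-0.45 ± 0.09, adjusted p = 0.00468). Its relative Lef1 changed by -0.46 ± 0.09, and both are also counted below among Wnt pathway genes. Among NK cell genes 6 of 9 rose and 1 fell (median 0.89, and 5 and 1 with a median of 0.57 without replicates 3 and 5), the fall being that of the chemokine Xcl1.

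The interferon gamma gene and most MHC class II genes were higher. Ifng was at 10.3, 5.20, 17.5, 11.7 and 15 FPKM with the combination, against 2.64, 2.48, 2.41, 2.67 and 2.44 with vehicle (1.78 ± 0.24, adjusted p = 0.00107). The vehicle values were nearly equal while the combination values spread widely, and the groups did not overlap. Of 9 tested MHC class II genes, 7 rose and 0 fell (median 1.2, and 0.89 without replicates 3 and 5). H2-Ab1 reached 1086, 611, 1655, 1631 and 2169 FPKM with the combination, against 359.9, 281, 378, 452 and 458 with vehicle (1.79 ± 0.30, adjusted p = 0.00264). Of 20 genes of MHC class I loading and the immunoproteasome, by contrast, 3 rose and 2 fell (median 0.09), shares close to or under those over all genes tested. With median-ratio scaling 6 rose and 0 fell, without combination replicate 2 the number higher was 8, and without replicates 3 and 5 there were 4 and 3 (median 0.12). The peptide transporter Tap1 changed by 0.39 ± 0.08 and the class I transactivator Nlrc5 by 0.48 ± 0.08.

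Interferon-inducible genes split into families that rose and a family that fell. Type I interferon stimulated genes are antiviral effectors switched on through a promoter element whose core repeats the letters GAAA. Guanylate-binding proteins and immunity-related GTPases are effectors against vacuolar pathogens and respond mainly to interferon gamma. Of 36 tested type I genes, 0 rose and 17 fell (median -0.41), and without replicates 3 and 5 the number that fell was 23 (median -0.50). Of 10 guanylate-binding protein genes 5 rose and 1 fell (median 0.28; 3 and 1 without replicates 3 and 5, median 0.29), and of 9 immunity-related GTPase genes 5 rose and 0 fell (median 0.30; also 5 and 0 without replicates 3 and 5, median 0.30). The number of guanylate-binding protein genes higher was also 3 without combination replicate 3 alone, or without vehicle replicate 1, 2 or 5.

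Promoter windows from 250 bases before to 50 bases after the gene start were taken from RefSeq (build GRCm38.p6) and searched on both strands for GAAANNGAAA, where N is any base; overlapping matches were each counted. The letters were present in 3.99% of all 27025 genes with a window. In the type I list they were present in 16 of 29 genes with a window, 10 of these among the 15 with a window that fell. They were also present in 5 of 5 guanylate-binding protein genes and 5 of 6 immunity-related GTPase genes with a window. These include, in each family, all 4 genes with a window that rose, and the other gene that rose had no window. The letters thus occurred both in genes that fell and in genes that rose. The windows of Ifit1 and Isg15, which fell, and of Gbp2b, which rose, are shown to set these letters side by side, 5′ to 3′ on each gene's own strand, with the matches in capitals.
Ifit1 (chr19:34640639-34640938, + strand): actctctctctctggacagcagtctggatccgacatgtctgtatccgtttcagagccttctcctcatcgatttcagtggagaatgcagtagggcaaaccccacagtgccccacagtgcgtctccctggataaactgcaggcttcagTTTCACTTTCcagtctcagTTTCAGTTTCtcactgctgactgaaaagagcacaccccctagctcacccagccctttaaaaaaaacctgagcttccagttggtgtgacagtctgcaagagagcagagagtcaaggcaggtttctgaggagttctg
Isg15 (chr4:156200769-156201068, - strand): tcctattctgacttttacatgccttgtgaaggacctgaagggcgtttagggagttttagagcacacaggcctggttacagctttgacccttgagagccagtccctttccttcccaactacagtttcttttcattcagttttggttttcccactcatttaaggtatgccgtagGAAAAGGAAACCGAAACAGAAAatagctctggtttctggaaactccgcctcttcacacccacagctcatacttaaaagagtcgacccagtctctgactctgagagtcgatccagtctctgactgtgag
Gbp2b (chr3:142594597-142594896, + strand): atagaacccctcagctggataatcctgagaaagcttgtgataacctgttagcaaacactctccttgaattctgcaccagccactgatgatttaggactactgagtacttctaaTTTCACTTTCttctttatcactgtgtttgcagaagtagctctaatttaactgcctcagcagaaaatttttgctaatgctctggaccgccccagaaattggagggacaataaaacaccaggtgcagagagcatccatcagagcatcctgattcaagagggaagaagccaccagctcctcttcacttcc
The Ifit1 window holds 2 matches, which read as the reverse complement, starting 104 and 85 bases before the gene start. The Isg15 window holds 3 overlapping matches, the first starting 78 bases before the start, and the Gbp2b window holds 1, starting 137 bases before it.

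Ifit1, an RNA-binding protein that blocks translation of viral messages, was at 27.8, 22.6, 24.2, 25.6 and 28.9 FPKM in combination replicates 1 to 5, against 57.3, 45.4, 50.5, 43.5 and 55.9 with vehicle (-0.94 ± 0.09, adjusted p = 0.00031). Isg15, a ubiquitin-like modifier named here after its values were seen, was at 226, 166, 181, 217 and 194 FPKM against 344, 294, 325, 292 and 342 with vehicle (-0.70 ± 0.09, adjusted p = 0.00105). Replicates 3 and 5, which stood apart for the leukocyte genes, were not the lowest here. Gbp2b was at 19.3, 3.88, 28.9, 15.7 and 16 FPKM against 2.25, 1.47, 1.18, 2.51 and 2.70 with vehicle (2.37 ± 0.40, adjusted p = 0.00273). Its reads can be shared with close paralogs of the family, so its level is uncertain. Iigp1, an immunity-related GTPase, was at 153, 125, 135, 166 and 113 FPKM against 95.5, 82.8, 87.8, 112 and 92.3 with vehicle (0.55 ± 0.11, adjusted p = 0.0059). Gbp9 went the other way within its family, at 36.1, 26.1, 30.3, 36.6 and 30.8 FPKM against 46.1, 37.7, 43.0, 40.7 and 47.3 with vehicle (-0.42 ± 0.10, adjusted p = 0.010). In all 5 genes the groups did not overlap, although the lowest Iigp1 value with the combination (113) was next to the highest with vehicle (112). Over all genes tested 9.15% lay wholly above and 14.9% wholly below, and these 5 were picked with their changes known.

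Most listed receptor genes of phagocytes were higher. Of 6 Fc gamma receptor genes 5 rose and 0 fell (median 1.05, and 0.70 without replicates 3 and 5). Fcgr4, an activating receptor for antibody on mouse macrophages and neutrophils, was at 213, 123, 303, 207 and 269.6 FPKM with the combination, against 55.3, 62.6, 62.6, 68.0 and 68.6 with vehicle (1.74 ± 0.20, adjusted p = 0.000563). Of 18 C-type lectin and Syk-Card9 genes, 13 rose and 0 fell (median 0.83, and 0.52 without replicates 3 and 5). Clec4d, the lectin receptor Dectin-3, was at 18.8, 18.5, 55.8, 26.8 and 45.1 FPKM against 6.24, 3.40, 8.28, 6.87 and 3.27 with vehicle (2.29 ± 0.34, adjusted p = 0.00155), and its relative Clec4e, known as Mincle, changed by 1.26 ± 0.18. Clec7a, the β-glucan receptor, was at 14.6, 19.7, 28.6, 20.2 and 40.9 FPKM against 14.2, 7.32, 18.2, 23.7 and 14.4 with vehicle. Its groups overlapped and it did not pass (0.64 ± 0.31, adjusted p = 0.131). Itgam was at 50.5, 38.5, 74.6, 40.0 and 67.7 FPKM against 29.6, 33.1, 28.7, 27.0 and 22 with vehicle (0.89 ± 0.19, adjusted p = 0.00636), and its partner Itgb2 changed by 1.17 ± 0.21.

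Genes of the phagocyte oxidase and of complement were mostly higher as well, and lysosomal genes in part. All 6 subunits of the phagocyte NADPH oxidase, which makes superoxide, rose (median 0.97), and all 6 rose without replicates 3 and 5 (median 0.58). The catalytic subunit Cybb was at 64.7, 55.3, 126, 59.8 and 133 FPKM with the combination, against 30.0, 27.7, 33.4, 32.0 and 32.6 with vehicle (1.36 ± 0.24, adjusted p = 0.00319). All 3 C1q chains rose (median 1.02, and 0.69 without replicates 3 and 5), with C1qa at 811, 601, 1141, 895 and 1371 FPKM against 466, 411, 564, 549.7 and 501 with vehicle (0.90 ± 0.20, adjusted p = 0.00747). Of the other 15 complement genes tested 11 rose and 0 fell (median 1.10). Without replicates 3 and 5 there were 9 and 0 (median 0.81). Which cells of the tumour block carried these complement genes was not tested. Masp1, a lectin pathway protease that is not on the complement list, was among the largest falls, at 2.53, 1.94, 2.33, 2.18 and 2.18 FPKM against 8.35, 5.22, 8.80, 5.46 and 8.32 with vehicle (-1.32 ± 0.14, adjusted p = 0.000345). Lysosomal genes rose in 12 of 28 cases and fell in 1 (median 0.40). The counts were 9 and 2 without replicates 3 and 5 (median 0.16), and without combination replicate 3 alone the number higher was 7. The cysteine protease Ctss changed by 1.16 ± 0.22, while the glycogen-degrading enzyme Gaa was at 38.8, 40.4, 45.6, 38.1 and 37.6 FPKM against 65.8, 60.3, 62.5, 52.8 and 64.8 with vehicle (-0.60 ± 0.07, adjusted p = 0.000789).

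Lists named for opposite macrophage states were both higher. Of 12 inflammatory macrophage products 11 rose, and of 10 alternatively activated macrophage genes 5 rose, with 0 lower in either (medians 1.2 and 0.72, and 0.84 and 0.51 without replicates 3 and 5). The counts that rose were 9 and 4 without replicates 3 and 5. The second count rested on single libraries, being 3 without any 1 of combination replicates 1, 4 and 5 and vehicle replicates 1, 2, 3 and 5. Acod1, which makes itaconate, was at 24.5, 13.4, 50.9, 22.6 and 48.3 FPKM with the combination, against 6.56, 5.68, 6.54, 7.80 and 4.65 with vehicle (2.04 ± 0.32, adjusted p = 0.00198). Folr2, a folate receptor of tissue macrophages on the alternatively activated list, was at 18.2, 12, 22.9, 14.8 and 25.2 FPKM against 4.07, 5.30, 8.52, 11.3 and 8.05 with vehicle (1.24 ± 0.26, adjusted p = 0.00605). Both genes rose without overlap. The lysozyme gene Lyz2 of macrophages and neutrophils lay between 1494 and 3916 FPKM with the combination and between 702 and 1109 FPKM with vehicle (1.32 ± 0.25).

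Mast cell genes rose in 7 of 8 cases (median 1.33), and in 5 without replicates 3 and 5 (median 1.19). The other, Gata2, a transcription factor that mast cells share with other lineages, changed by -0.49 ± 0.12. The tryptase Tpsb2 was at 17, 24, 28.4, 20.8 and 41.7 FPKM with the combination, against 4.81, 6.18, 9.67, 11.7 and 2.91 with vehicle (1.82 ± 0.32, adjusted p = 0.00313). Of 17 listed neutrophil genes only 7 were tested, the others lying under the filter. Of these 4 rose and 0 fell (median 0.73), and 3 and 0 without replicates 3 and 5 (median 0.51). The calprotectin subunit S100a9, mostly of neutrophils and monocytes, was at 3.18, 3.87, 6.70, 7.48 and 8.99 FPKM against 0.140, 0.130, 0.482, 1.28 and 2.15 with vehicle (1.98 ± 0.33, adjusted p = 0.00256). The groups overlapped in neither gene.

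Most genes of secreted inflammatory proteins that changed were higher. Of 22 chemokine ligands 13 rose and 2 fell (median 0.82; 8 and 4 without replicates 3 and 5, median 0.62), and of 9 acute-phase genes 6 rose and 0 fell (median 1.43; 4 and 0 without replicates 3 and 5, median 1.12). Ccl5, a T cell and macrophage chemokine, was at 311, 187, 614, 751 and 893 FPKM with the combination, against 134, 84.7, 127, 153 and 122 with vehicle (1.95 ± 0.38, adjusted p = 0.00494). Cxcl12, a stromal chemokine, was at 5.06, 4.30, 9.29, 11.9 and 20.3 FPKM against 0.983, 1.59, 1.85, 2.34 and 1.08 with vehicle (1.96 ± 0.34, adjusted p = 0.00304). In both the groups did not overlap. Falls were seen for Ccl1, a T cell and mast cell chemokine, at 1.08, 1.72, 1.05, 1.23 and 1.3 FPKM against 3.72, 1.44, 5.42, 5.76 and 3.69 with vehicle (-1.06 ± 0.24, adjusted p = 0.00892), and for Xcl1, a dendritic cell attractant (-1.22 ± 0.33, adjusted p = 0.0171). Replicate 2 overlapped with vehicle in Ccl1. Saa3, a serum amyloid made in inflamed tissue, varied within both groups, at 52.5, 26.8, 124, 117 and 119 FPKM against 4.03, 5.58, 36.0, 19.5 and 8.58 with vehicle (2.68 ± 0.59, adjusted p = 0.00791). Its lowest combination value lay below its highest vehicle value. Adipocyte genes varied beside this list. Of 12 tested 2 rose and 0 fell (median 1.23), and likewise without replicates 3 and 5 (median 1.09). The share that rose, 16.7%, was near the 13.4% over all genes tested. That count rested on single libraries, being 10 without combination replicate 2 and 8 without vehicle replicate 4. The summed level of the adipocyte list lay between 59.3 and 441 FPKM with the combination and between 30 and 321 FPKM with vehicle. The mean of the adipocyte list stood 1.87, -0.32, 1.02, 1.98 and 2.01 log2 units from the vehicle mean in combination replicates 1 to 5, and that of the acute-phase list 1.52, 0.30, 1.73, 1.79 and 1.99. Both were lowest in replicate 2, and the part of admixed fat in the acute-phase result was not tested.

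**Figure D2:**
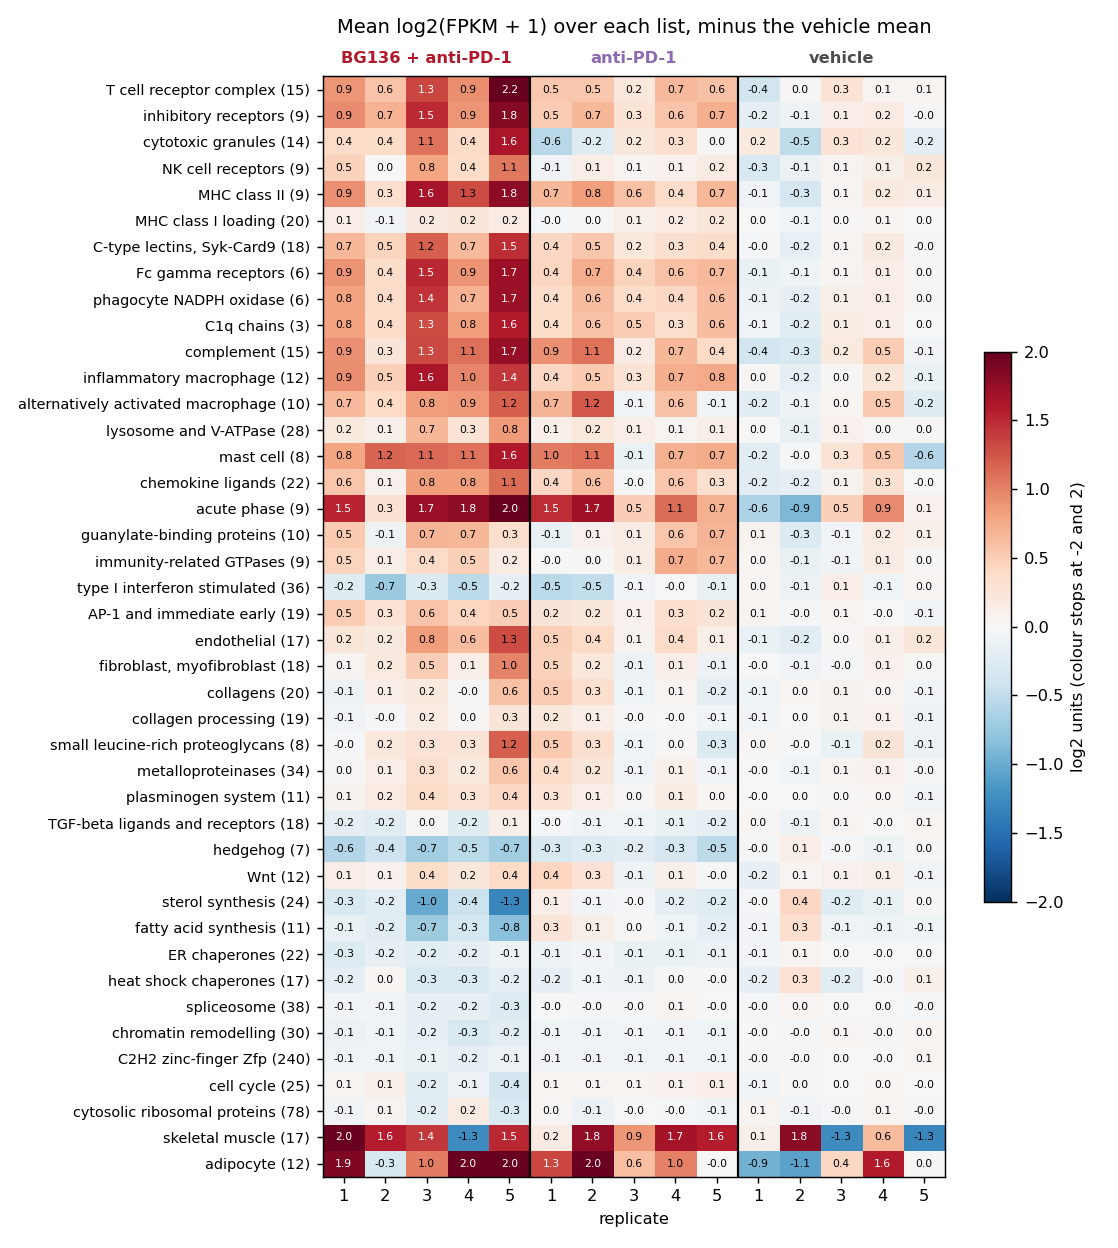
Each cell is the mean log2(FPKM + 1) of a list's tested members in 1 library minus the mean of the 5 vehicle libraries, with the number of members in brackets; columns are replicates 1 to 5 of the combination, anti-PD-1 and vehicle groups. In combination replicates 3 and 5 the T cell receptor complex stands at 1.34 and 2.16 and sterol synthesis at -1.01 and -1.3, while guanylate-binding proteins stand at 0.68 and 0.35, against 0.67 in replicate 4.

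Matrix genes moved in both directions. Of 20 tested collagen genes 8 rose and 7 fell (median 0.05). The fibrillar type I chains rose. Col1a2 was at 139, 159, 257, 159 and 497 FPKM with the combination, against 46.3, 76.9, 71.7, 76.8 and 48.8 with vehicle (1.76 ± 0.32, adjusted p = 0.00374), and Col1a1 changed by 1.27 ± 0.30. Col12a1, a collagen that sits on type I fibrils, changed by 1.58 ± 0.37. The beaded-filament chain Col6a1 fell, at 100.3, 155, 94.3, 129 and 108 FPKM against 244, 220.4, 263, 219 and 214 with vehicle (-1 ± 0.13, adjusted p = 0.000934). Col6a2 changed by -0.90 ± 0.14 and Col5a1, which nucleates fibrils, by -0.98 ± 0.11. Replicate 5 held the highest values of the type I chains, as it did for Ptprc, Cd3g and Cd8b1 but not for all leukocyte genes. Without replicates 3 and 5 the collagen counts were 7 higher and 7 lower (median -0.02). Without combination replicate 3 alone 5 were higher.

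Genes of collagen processing and of the small leucine-rich proteoglycans, which coat fibrils, were also split. Of 19 processing enzymes 5 rose and 7 fell (median -0.10), and without replicates 3 and 5 there were 3 and 7 (median -0.13). The number higher was 2 without combination replicate 3 alone or vehicle replicate 1, 2 or 5, and 3 without vehicle replicate 3. Adamts2, which trims procollagen I, changed by 1.60 ± 0.30, and the collagen chaperone Serpinh1 was at 274, 341, 302, 282 and 301 FPKM with the combination, against 414, 481, 465, 422 and 423 with vehicle (-0.56 ± 0.07, adjusted p = 0.00107). Of 8 small leucine-rich proteoglycans 5 rose and 2 fell (median 1.13, and 0.75 without replicates 3 and 5). Lum (lumican) was at 16.8, 21.2, 27.5, 33.3 and 51.7 FPKM against 13.5, 10, 5.85, 13.7 and 6.88 with vehicle (1.47 ± 0.30, adjusted p = 0.00603). Ogn (osteoglycin) was at 9.71, 11.4, 8.52, 14.1 and 16.9 FPKM against 53.5, 54.8, 61.5, 52.3 and 56.0 with vehicle (-2.14 ± 0.15, adjusted p = 4.78e-05). The groups of Lum and of Ogn did not overlap, and those of Ogn stood far apart.

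Of 18 fibroblast and myofibroblast genes 8 rose and 3 fell (median 0.19), and without replicates 3 and 5 there were 9 and 4 (median 0.20). The share that fell was 16.7%, close to the 18.9% over all genes tested. The contractile gene Tagln was at 11.7, 15.7, 24.7, 17.3 and 71.1 FPKM with the combination, against 4.48, 5.11, 4.92, 8.28 and 5.70 with vehicle (1.84 ± 0.39, adjusted p = 0.00695). Pdgfra, a growth factor receptor of fibroblasts and other mesenchymal cells, was at 9.57, 11.4, 8.78, 11 and 9.24 FPKM against 26.1, 22, 27.2, 22 and 24.2 with vehicle (-1.2 ± 0.09, adjusted p = 5.12e-05). Fn1 (fibronectin) was at 333, 358, 346, 242 and 224 FPKM against 695, 635, 680.2, 634 and 669.9 with vehicle (-1.16 ± 0.13, adjusted p = 0.000507). Pdgfra and Fn1 were low in all 5 combination tumours, whereas replicate 5 carried the highest Tagln. Of 12 adventitial fibroblast genes 6 rose and 2 fell (median 0.57), and without replicates 3 and 5 there were 3 and 1 (median 0.41). Here too 16.7% fell, close to the share over all genes tested. Pi16, which marks adventitial fibroblasts, changed by 1.76 ± 0.30, and Dpt (dermatopontin) by -1.06 ± 0.17.

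Matrix proteases and their inhibitors gave 11 rises and 6 falls among 34 tested (median 0.18). The share that fell, 17.6%, was close to the 18.9% over all genes tested. Without replicates 3 and 5 there were 7 and 5 (median 0.09), and without combination replicate 3 alone 7 were higher. Mmp3 (stromelysin-1) was at 13.7, 13.7, 31.9, 49.3 and 56.0 FPKM with the combination, against 2.17, 3.85, 6.00, 5.82 and 3.08 with vehicle (2.55 ± 0.41, adjusted p = 0.0023). Mmp9 (gelatinase B) was at 11.7, 10.4, 9.63, 9.96 and 10.4 FPKM against 51.8, 27.8, 46.9, 36.0 and 43.4 with vehicle (-1.86 ± 0.14, adjusted p = 6.94e-05). The groups overlapped in neither gene, and the 5 Mmp9 values with the combination were close together. The membrane-anchored Mmp16 changed by -1.14 ± 0.09. In the plasminogen system 4 of 11 rose and 3 fell (median 0.30), as they did without replicates 3 and 5 by count (median 0.22). The urokinase receptor Plaur was at 37.5, 40.8, 47.9, 43.1 and 38.1 FPKM against 21.2, 22.7, 23.1, 24.3 and 17.8 with vehicle (0.90 ± 0.09, adjusted p = 0.000338). F3 (tissue factor), which starts coagulation, was at 15.2, 19.6, 18.2, 25.7 and 14.1 FPKM against 48.0, 41.8, 38.7, 33.6 and 39.8 with vehicle (-1.10 ± 0.15, adjusted p = 0.00107).

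**Figure D3:**
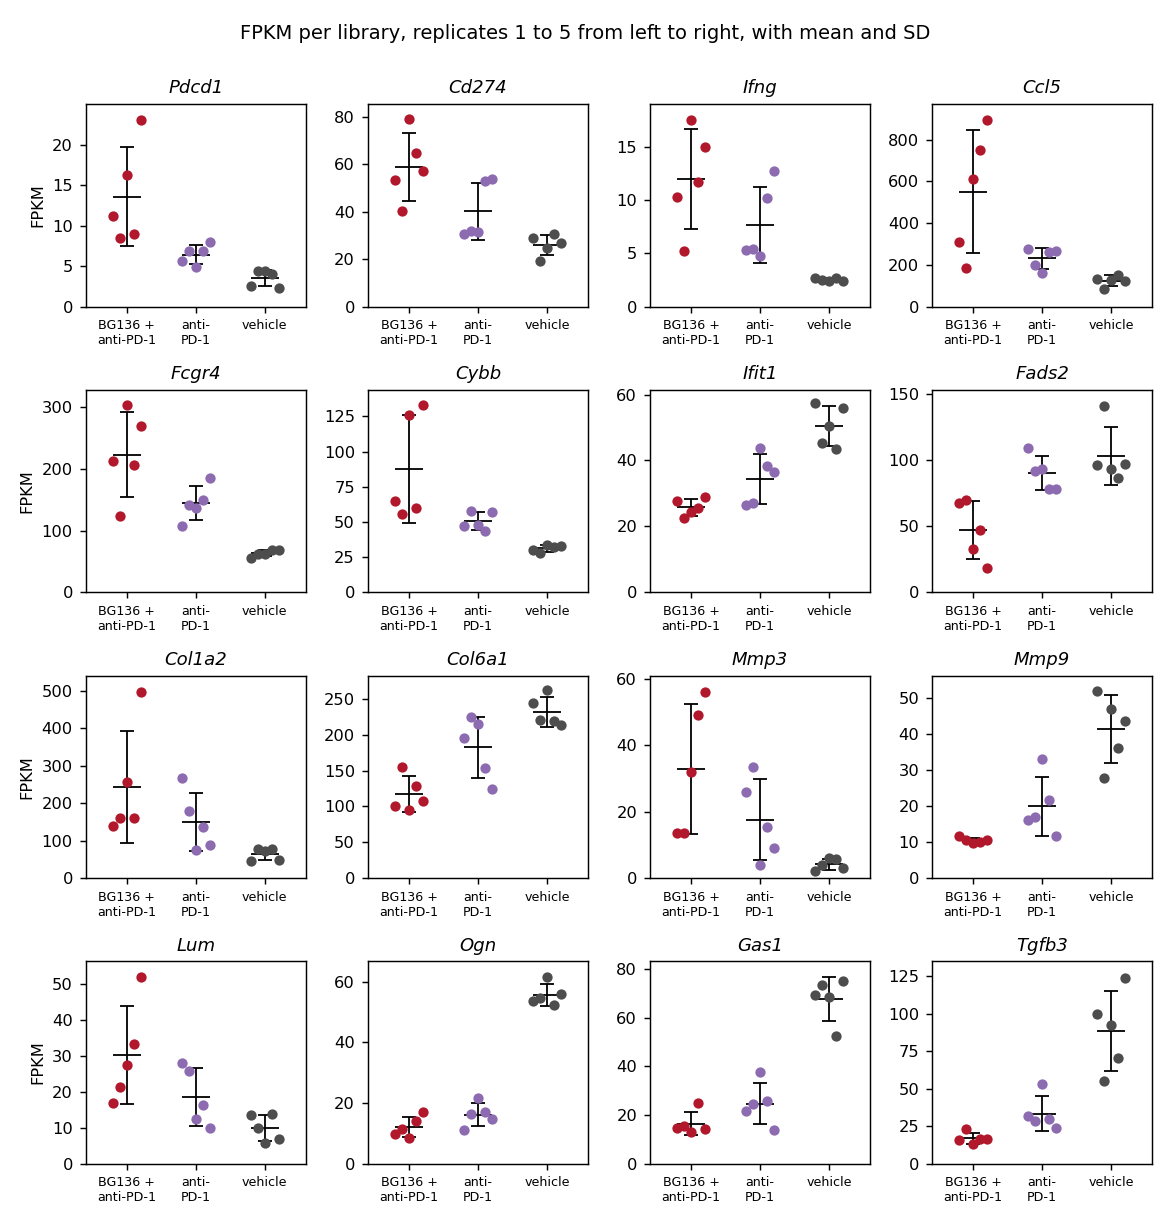
FPKM of 16 genes in each library, with replicates 1 to 5 from left to right in the combination, anti-PD-1 and vehicle groups; bars are the mean and SD (n = 5). Col1a2, Mmp3 and Lum are higher with the combination than with vehicle, and Col6a1, Mmp9 and Ogn of the same families are lower, with no overlap of the groups in these 6 genes. They were picked for large changes past the threshold. Over all genes tested 9.15% lay wholly above and 14.9% wholly below.

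Most tested hedgehog genes fell. Gas1, a cell surface co-receptor of hedgehog ligands, was at 14.8, 15.4, 13.1, 24.8 and 14.3 FPKM with the combination, against 69.2, 73.6, 68.4, 52.5 and 74.9 with vehicle (-2 ± 0.16, adjusted p = 8.18e-05). Of 7 tested hedgehog genes 0 rose and 5 fell (median -0.37), and 5 fell without replicates 3 and 5 (median -0.36). The signal transducer Smo was at 27.3, 27.5, 22.2, 27.8 and 17.7 FPKM against 47.6, 41.6, 45.2, 41.2 and 46.6 with vehicle (-0.85 ± 0.12, adjusted p = 0.00115). The pathway's target genes, named after their values were seen, did not pass. Gli1 changed by -0.22 ± 0.14 (adjusted p = 0.23) and Ptch1 by 0.15 ± 0.11 (adjusted p = 0.301).

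In the list of TGF-beta ligands, receptors and latency proteins 4 of 18 rose and 7 fell (median 0.02), and without replicates 3 and 5 there were 2 and 6 (median -0.10). The 2 that rose there are near the 10.6% of all genes tested that were higher without these replicates. The number higher was 1 or 2 without any 1 of combination replicates 1, 3 and 5 and of the vehicle replicates. Tgfb3 was at 15.7, 22.9, 13.1, 16.8 and 16.3 FPKM with the combination, against 99.7, 54.9, 92.5, 70.7 and 124 with vehicle (-2.28 ± 0.21, adjusted p = 0.000191). Tgfb1 was at 50.3, 47.9, 66.1, 46.2 and 74.5 FPKM against 51.0, 41.6, 51.2, 47.1 and 45.8 with vehicle and did not pass (0.24 ± 0.13, adjusted p = 0.176). The groups of Tgfb3 did not overlap and those of Tgfb1 did. Ltbp3, which tethers latent TGF-beta in the matrix, changed by -0.79 ± 0.09, Itgb8, a subunit of an integrin that activates it, by -0.87 ± 0.13, and Nrros, which holds it on myeloid cells, by 0.89 ± 0.24. Of 12 Wnt pathway genes 4 rose and 6 fell (median -0.24), and likewise 4 and 6 without replicates 3 and 5 (median -0.17). Among secreted Wnt binders, Sfrp2 was at 14.8, 9.41, 22.9, 21.1 and 31.3 FPKM against 2.29, 5.44, 5.03, 5.24 and 2.25 with vehicle (2.02 ± 0.31, adjusted p = 0.00196) and Sfrp1 changed by 1.79 ± 0.29. The ligand Wnt5a was at 23.7, 22.2, 19.9, 22.7 and 15 FPKM against 34.2, 36.4, 34.4, 32.5 and 32.9 with vehicle (-0.71 ± 0.11, adjusted p = 0.00171). Of 11 epithelial-mesenchymal transition factors and cadherins 2 rose and 4 fell (median -0.15), and without replicates 3 and 5 there were 3 and 4 (median -0.07). The share that rose, 18.2%, was near the 13.4% over all genes tested. The transcription factor gene Snai1 changed by -1.13 ± 0.12, Zeb1 by -0.70 ± 0.12, and Cdh11, a cadherin of mesenchymal cells, by 1.31 ± 0.23. Osr2, a transcription factor of mesenchymal tissue that is not on that list, changed by -2.19 ± 0.14.

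Endothelial genes were higher in 10 of 17 cases and lower in 0 (median 0.61). Without replicates 3 and 5 the number higher was 2 (median 0.28). It was 4 and 6 without combination replicate 3 or 5 alone, and 5, 4, 3 and 5 without vehicle replicate 1, 2, 3 or 4. Pecam1, an endothelial adhesion molecule that leukocytes also carry, was at 14.2, 13.3, 26.0, 17.3 and 34.2 FPKM with the combination, against 7.92, 7.95, 9.57, 10.8 and 10.1 with vehicle (1.02 ± 0.23, adjusted p = 0.00904). Vegfa, the main angiogenic ligand, was at 31.9, 39.6, 32.0, 46.8 and 16.3 FPKM against 35.7, 25.3, 27.7, 30.7 and 23.8 with vehicle and did not pass (0.15 ± 0.23, adjusted p = 0.654).

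Lipid synthesis genes were lower. Cells make cholesterol and fatty acids through enzymes switched on by the SREBP transcription factors when sterols are scarce. Of 24 tested sterol synthesis and SREBP target genes, 0 rose and 17 fell (median -0.65), and of 11 fatty acid synthesis genes 0 rose and 6 fell (median -0.44). These falls were deepest in combination replicates 3 and 5, at a sterol score of -1.01 and -1.3 log2 units against the vehicle mean, and -0.30, -0.23 and -0.43 in replicates 1, 2 and 4. Without replicates 3 and 5 the count was 5 for the sterol list (median -0.34) and 3 for the fatty acid list (median -0.28). Single libraries also decided the sterol count, which was 3 without combination replicate 3, and 8, 3 and 5 without vehicle replicate 1, 2 or 5. Fads2, a fatty acid desaturase, was at 67.7, 69.9, 32.4, 47.1 and 18.5 FPKM with the combination, against 96.5, 141, 93.5, 86.2 and 97.0 with vehicle (-1.24 ± 0.32, adjusted p = 0.0152), and Fads1 changed by -0.84 ± 0.21. In Fads2 the groups did not overlap, and replicates 5 and 3 were the lowest. Ptprc was highest in the same pair of tumours, and the part of leukocyte content in these falls was not tested.

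Hmgcs1, the first committed enzyme on the way to mevalonate, was named after its values were seen because its promoter alone among 16 sterol list genes with a window held TCACNCCAC, a form of the sterol regulatory element searched on both strands, which 1.44% of all genes with a window hold. Its window is shown with the match, starting 137 bases before the gene start, in capitals.
Hmgcs1 (chr13:119690101-119690400, + strand): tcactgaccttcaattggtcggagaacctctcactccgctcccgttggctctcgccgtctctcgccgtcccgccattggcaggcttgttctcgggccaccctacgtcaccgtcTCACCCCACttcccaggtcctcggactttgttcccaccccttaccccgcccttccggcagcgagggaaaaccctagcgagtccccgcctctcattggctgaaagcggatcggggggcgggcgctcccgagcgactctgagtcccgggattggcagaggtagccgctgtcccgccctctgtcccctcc
Hmgcs1 was at 27.5, 28.2, 13.3, 26.3 and 11.2 FPKM with the combination, against 41.1, 59.3, 29.5, 33.4 and 47.4 with vehicle (-1.01 ± 0.28, adjusted p = 0.0209). The adjusted p was above 0.05 without combination replicate 3 (-0.87), vehicle replicate 2 (-0.87) or vehicle replicate 5 (-0.95), and without combination replicates 3 and 5 together (-0.56).

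Protein folding genes fell by small amounts. Of 22 endoplasmic reticulum chaperone and XBP1 target genes 0 rose and 11 fell (median -0.22), with 12 lower without replicates 3 and 5 (median -0.23) and 6 lower with median-ratio scaling. Pdia4, a disulfide isomerase, was at 51.5, 58.2, 57.5, 53.3 and 56.5 FPKM with the combination, against 80.1, 87.7, 89.4, 79.6 and 81.0 with vehicle (-0.58 ± 0.06, adjusted p = 0.00029). Hsp90b1 changed by -0.45 ± 0.07. Heat shock chaperones fell in 6 of 17 cases and rose in 0 (median -0.29), likewise in 6 without replicates 3 and 5 (median -0.20) and in 12 without combination replicate 2. Dnaja1 was at 61.8, 62.9, 53.1, 50.9 and 64.7 FPKM with the combination, against 75.5, 96.9, 81.0, 80.5 and 119 with vehicle (-0.60 ± 0.12, adjusted p = 0.0059). Immediate early genes rose in 10 of 19 cases, with 0 lower (median 0.42), and in 10 without replicates 3 and 5 (median 0.40). Fosb, an AP-1 subunit, was at 3.62, 2.63, 5.02, 2.50 and 3.56 FPKM against 0.631, 0.964, 1.10, 0.880 and 1.06 with vehicle (1.19 ± 0.14, adjusted p = 0.000685).

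Some genes of nuclear proteins fell by small amounts. Of 240 tested Zfp zinc-finger genes 2 rose and 70 fell (median -0.12), of 30 chromatin remodelling genes 0 rose and 11 fell (median -0.15), and of 38 spliceosome genes 0 rose and 10 fell (median -0.15). These shares, 29.2%, 36.7% and 26.3%, stood beside 18.9% over all genes tested. Without replicates 3 and 5 the numbers that fell were 49, 10 and 6, beside 13.7% of all genes tested. The spliceosome number is near that share. Without vehicle replicate 5 the Zfp number was 44, beside 1449 of all 11106 genes tested. With median-ratio scaling, under which 13% of all genes tested fell, the numbers that fell were 44, 9 and 6, of which the spliceosome number is near that share, and the medians -0.07, -0.09 and -0.09, against -0.001 for all genes with that scaling and -0.06 as deposited. Smarca2, an ATPase of the SWI/SNF complex, was at 6.29, 7.08, 6.17, 6.99 and 7.75 FPKM with the combination, against 10.6, 9.6, 10.5, 9.86 and 11.8 with vehicle (-0.55 ± 0.07, adjusted p = 0.00105). Few proliferation genes passed. Of 25 cell cycle genes 1 rose and 0 fell (median -0.14), and 2 and 0 without replicates 3 and 5 (median 0). The count depended on 1 library, since without combination replicate 2 alone 1 rose and 8 fell. Mki67 was at 25.6, 29.8, 20.9, 18.7 and 21.8 FPKM with the combination, against 24.6, 26.3, 26.4, 26.1 and 24.6 with vehicle (-0.14 ± 0.11, adjusted p = 0.313). Of 78 cytosolic ribosomal protein genes 0 passed in either direction (median -0.08), as without replicates 3 and 5 (median 0.05). The number lower was 6 without combination replicate 2 and 2 without combination replicate 4.

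**Figure D4:**
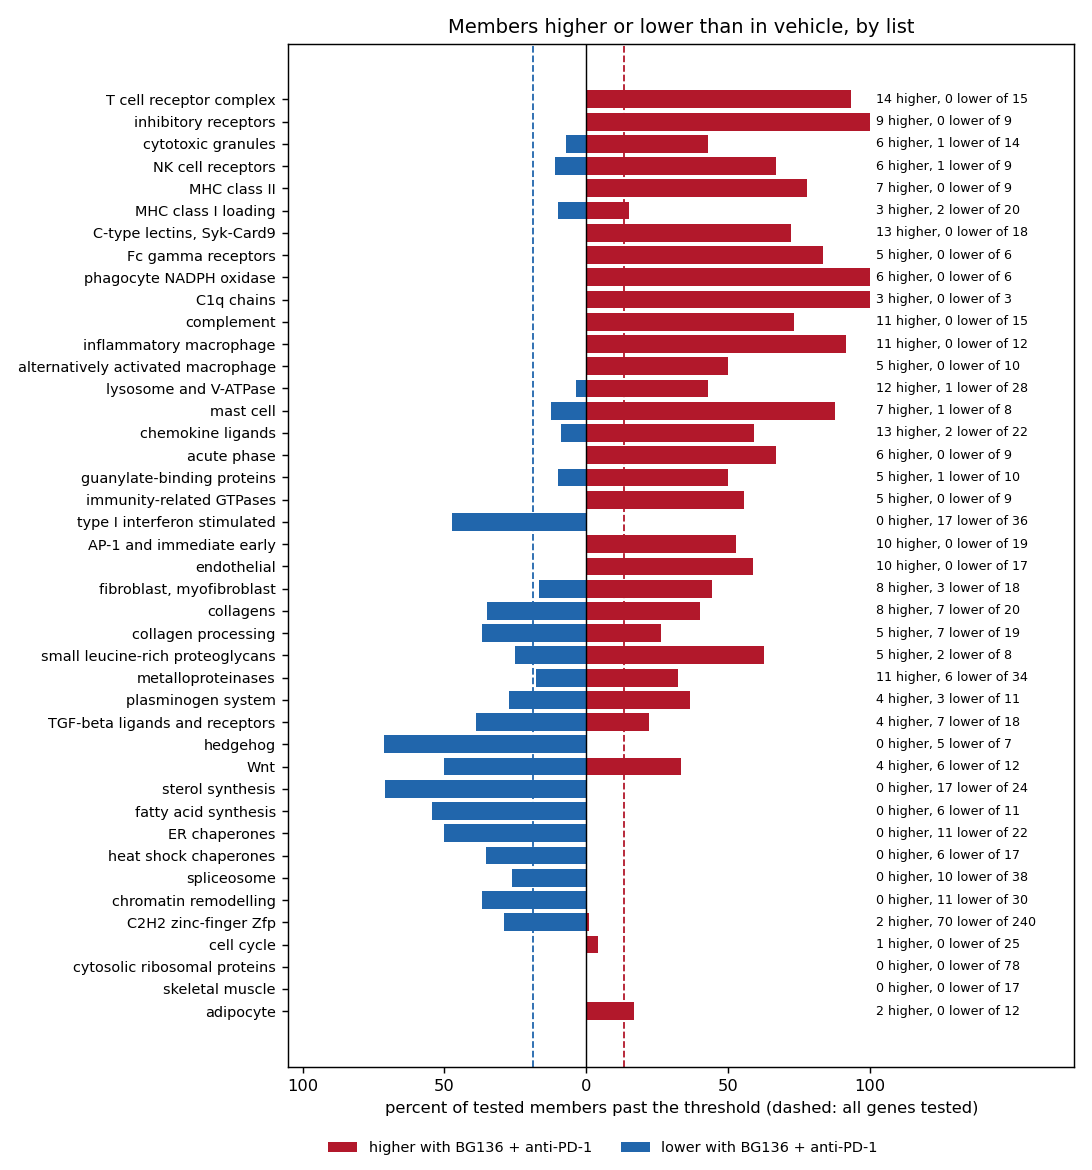
Bars give the percentage of each list's tested members past the threshold against vehicle, higher to the right in red and lower to the left in blue, with the counts at the right edge. Dashed lines mark 13.4% higher and 18.9% lower over all genes tested. The T cell receptor complex extends to the right with 14 of 15 members, sterol synthesis to the left with 17 of 24, and collagens to both sides with 8 and 7 of 20. For metalloproteinases the left bar is close to the dashed line.

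Set against anti-PD-1 alone, 0 of 11186 genes passed in limma (0%), the smallest adjusted p being 0.195. At an unadjusted p under 0.05 there were 2246 genes (20.1%), 713 higher and 1533 lower with the combination. A fit that shared its spread with the vehicle libraries called 7, all lower (Arl6ip5, Hhipl1, Nav1, Pak4, Plekhh1, Unc5a and Vps37c, which were named after their values were seen). Both comparisons use the same 5 combination libraries, so their values are given side by side and no relation between them was computed. For the T cell receptor complex the list median was 1.2 against vehicle and 0.68 against anti-PD-1, and for MHC class II genes 1.2 and 0.58. For Pdcd1 the log2 differences were 1.63 ± 0.26 and 0.90 ± 0.24, and for Clec4d 2.29 ± 0.34 and 1.21 ± 0.35.

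Other lists are given in the same way. The sterol list had a median of -0.65 against vehicle and -0.58 against anti-PD-1, with 20 of 24 genes at an unadjusted p under 0.05 in the second comparison and 0 past the adjusted threshold. The immunity-related GTPases had medians of 0.30 and 0.01, with 0 of 9 genes at an unadjusted p under 0.05, and Iigp1 averaged 138 ± 21.5 FPKM with the combination, 142 ± 42.9 with anti-PD-1 and 94 ± 10.9 with vehicle (SD, n = 5 each, as for the means below). Type I interferon genes had medians of -0.41 and -0.14, and acute-phase genes 1.43 and 0.28. Ogn averaged 12.1 ± 3.4 FPKM with the combination, 16.2 ± 3.85 with anti-PD-1 and 55.6 ± 3.57 with vehicle, and its difference from anti-PD-1 was -0.40 ± 0.19. None of these differences from anti-PD-1 passed the adjusted threshold, which does not show that the groups were alike.

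**Figure D5:**
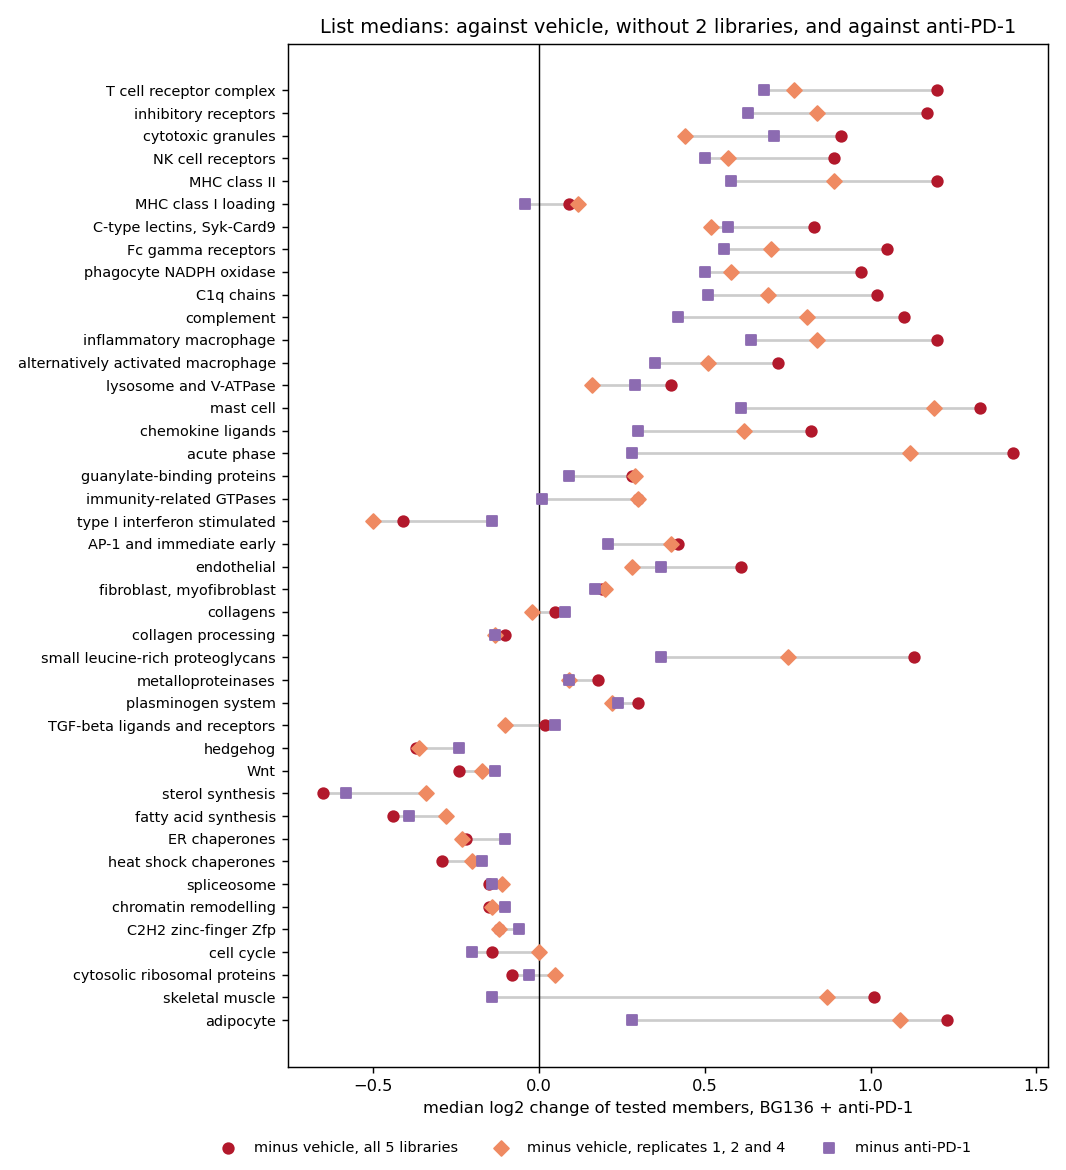
For each list, the median log2 change of its tested members in the combination group minus vehicle with all 5 libraries (circles), minus vehicle with replicates 1, 2 and 4 only (diamonds), and minus anti-PD-1 (squares). Sterol synthesis lies at -0.65, -0.34 and -0.58, and immunity-related GTPases at 0.30, 0.30 and 0.01.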

How the data were processed

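Messenger RNA of MC38 tumour blocks was extracted with mirVana and read with a TruSeq stranded kit, per the labels' protocols. The submitters' processing notes name Trimmomatic, HISAT2, HTSeq, Cufflinks, DESeq and the build GRCm39, without their roles. The authors deposited 1 table of 15 libraries, whose values were taken as FPKM from their range and from the mention of Cufflinks. FPKM is a share of each library, so a large rise of some genes lowers others. Of 21878 entries, 27 with names turned into dates were left out, at most 0.168% of a library's FPKM. Totals lay between 377509 and 424899 FPKM, and 0 pairs of libraries were identical. Fragment counts were not used here, so absolute depth is unknown. From the steps between low values, the relative depth of 13 libraries lay between 0.835 and 1.07; combination replicate 4 had no clear steps. No interval from counting was given.

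Groups followed the titles. Values were tested as log2(FPKM + 1), which understates changes of low genes, with limma 3.58.1 (R 4.3.3; lmFit, eBayes with a trend), two-sided, with Benjamini-Hochberg adjustment over all genes tested. Only the 10 libraries compared entered each fit, and genes needed 1 FPKM in at least 5 of them. The same steps were tested on simulated data. Lists are described by counts and medians, with Python 3.11.15 and pandas 2.3.3. Promoter windows came from RefSeq on GRCm38.p6, a different build from that of the files, and were matched by symbol. Alternatives were other pseudocounts, filters, scalings and fits, a replicate block, and fits without single libraries.

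The groups, gene lists and genes were chosen with earlier results of these data known. Genes named were drawn from a rule, and not every gene that it gives is printed. It took those past the threshold with the largest rises and falls at 5 FPKM or more, and up to 3 rises and 3 falls of each list. Where no member of a list passed, it took the member with the highest mean. The most abundant genes and a fixed set of 13 were added. Epcam, Krt18, Vim, Ptprc, Adipoq, Isg15, Hmgcs1, Gli1, Ptch1 and the 7 genes lower against anti-PD-1 lie outside that rule.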

Additional observations from a re-analysis of the deposited data

Results flagged for a closer look

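Each group's 5 values of every gene and list reported were examined for a library far from the rest, by Dixon's ratio of the gap to the group's range against a limit of 0.71. Of 294 groups examined 18 exceeded it, and chance gives about 1 in 20. Of these, 6 concerned vehicle replicate 2, and the causes were not tested.

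In the combination group, Xcl1 was at 1.54 FPKM in replicate 2, below the others. Replicate 2 was also low in Nlrc5, at 16.7 FPKM, and in the mean of the acute-phase list, at 0.30 log2 units from the vehicle mean, and high in that of the epithelial-mesenchymal transition list, at -0.05. Replicate 4 was low in Acta1, at 0.0963 FPKM, and in the mean of the skeletal muscle list, at -1.26 log2 units, and it was high in Gas1, at 24.8 FPKM. Replicate 5 was low in Vim, at 1309 FPKM, and high in the mean of the small leucine-rich proteoglycans, at 1.2 log2 units.

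In the vehicle group, replicate 2 was high in Fads1 at 118 FPKM, in Fads2 at 141 FPKM, in Gli1 at 2.69 FPKM and in the mean of the fatty acid synthesis list at 0.33 log2 units. It was low in Gzmb at 18.4 FPKM and in Tap1 at 92.7 FPKM. Replicate 4 was low in Gas1 at 52.5 FPKM and in Mmp16 at 3.31 FPKM. Replicate 1 was high in the mean of the epithelial-mesenchymal transition list, at 0.02 log2 units.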

How the results depend on the processing

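The count of genes past the threshold against vehicle lay between 2449 and 4474 under the other pseudocounts, filters, scalings and fits, against 3587 as reported. The 2449 were of 7786 genes tested, with a filter of 5 FPKM. Without a filter 3947 of 17411 passed, and the other fits tested 11106 genes. With single libraries left out the count lay between 2494 (without combination replicate 3) and 4268 (without combination replicate 2). Leaving out 1 library gave 1014 to 1835 genes higher and 1449 to 2433 lower. With a filter of 5 FPKM, 914 genes were higher, from fewer genes tested. By an unadjusted p under 0.05 with at least a 2-fold change, 392 genes were counted, 340 higher and 52 lower. The count of adjusted changes of at least 2-fold, 377 as reported, was 615 with a pseudocount of 0.1, which shrinks low genes less, 152 without combination replicates 3 and 5, and 241 to 551 without single libraries. Against anti-PD-1, 7 genes passed in the fit of all 15 libraries, 17 by the unadjusted rule, and 0 in every other fit run, leaving out single libraries included. Deviations of same-numbered libraries correlated at 0.033 to 0.293, and 2 of 5 pairs exceeded 0.1. No correlation was computed between differently numbered libraries, so these values cannot tell whether the replicate numbers pair the tumours. With the replicate block 3279 genes passed.

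Of the genes named that passed, Hmgcs1 lost its call in some alternatives, given in the report; no named gene changed direction. Of those that did not pass, Gzmb passed with array weights, with the replicate block and without combination replicate 2, and Mki67 passed without combination replicate 2 (-0.23). Adipoq passed with the replicate block, without combination replicate 2 and without vehicle replicate 4, and Vim passed with median-ratio scaling (0.23), without combination replicate 5 and without combination replicates 3 and 5. The causes were not tested. Without fragment counts, depth limits the low genes to an unknown extent.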
